A study of Oryza sativa with 2 samples.

Results

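The peaks described here are those that an anti-Myc ChIP-seq experiment in rice shoots placed close to the centromeres. Chromatin immunoprecipitation followed by sequencing (ChIP-seq) recovers DNA bound by a protein with an antibody and sequences it. A peak was taken as centromere-proximal when its summit, the base with the highest ChIP coverage, lay within 1 Mb of a given centromere position on chromosomes 1 to 12. The 12 positions are at 16.7, 13.6, 19.4, 9.7, 12.4, 15.3, 12.1, 12.9, 2.8, 8.2, 12 and 11.9 Mb on chromosomes 1 to 12 in that order, in Nipponbare coordinates (IRGSP-1.0, which MSU7 shares). The rule uses positions alone and no measured value of a peak. The rule selected 369 of the 6672 listed peaks, and the other 6291 peaks on the 12 chromosomes served for comparison. Which build the deposited list uses is not stated in its header or in the labels, and its sequence names were taken to match. Nothing in the list marks a centromere, so the positions themselves could not be checked against the data.

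Both libraries came from shoots of transgenic rice that express the transcription factor OsWRKY11 with a Myc tag from the pUbi (ubiquitin) promoter, so the factor was made under a promoter other than its own. The shoots were fixed in 1% formaldehyde. The plants were 3 weeks old by the design text, while the sample titles carry the tag 30D. There was 1 anti-Myc library and 1 input library, which is sequenced chromatin without antibody selection. A library of untagged plants was not analysed here. With 1 library of each kind, no difference below has a replicate check and none was tested; the intervals cover counting error only, and neighbouring peaks share their surroundings and are not independent.

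Centromeres are the sites where chromosomes attach to the spindle. In rice they are built on the CentO satellite, a short sequence repeated in tandem, mixed with centromere-specific retrotransposons and carrying the histone variant CENH3. The flanking pericentromeric chromatin is rich in transposable elements and poor in genes compared with the arms. WRKY factors, named for an amino acid motif in their DNA-binding domain, are known mainly for binding W-box elements in promoters of defence and stress genes. Genes and DNA sequence under the peaks were not analysed here.

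Each peak is described by its pileup, background, fold and q. The pileup is the number of ChIP fragments at the summit. The background is the number expected there without binding, solved from the pileup and the deposited fold. It has a genome-wide floor of 5.69 fragments and lies above it where the input is locally denser. The fold is the authors' enrichment of ChIP over background, and q is the authors' false discovery rate for the peak. The lowest fold in the list is 2.00 and the lowest pileup 13 fragments, so weaker sites are absent from it. A background at least 2 times the floor is called high.

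Centromere-proximal peaks were a little sparser than those on the rest of the chromosomes, but more of them passed q and far more stood over high background. The windows held 15.4 peaks per Mb (95% exact Poisson interval 13.8 to 17) over 24 Mb. The rest of the chromosomes held 18 per Mb (17.6 to 18.5), with each chromosome measured to the end of its last peak. By distance, the rest held 13.7 to 16.2 per Mb in the bins from 1 to 10 Mb and 21.5 beyond 10 Mb. The order turned with a window of 0.5 Mb (18.4 against 17.8 per Mb) and among peaks past q (4.46 against 2.70). Density in the window was lower than on the rest of the same chromosome for 9 of the 12 chromosomes. The chromosome 3 window, with 9.5 peaks per Mb, was the sparsest, and the chromosome 11 window, with 23.5, the densest. The windows thus took 6.44% of the bases and 5.54% of the peaks.

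Of the 369 centromere-proximal peaks, 107 passed q at 0.05, which is 29.0% (95% Wilson interval 24.6 to 33.8%). In the whole list 15.8% of peaks did so, and among the other peaks on the 12 chromosomes 943 of 6291, or 15% (14.1 to 15.9%). The share was higher in the window than on the rest of the same chromosome for 10 of 12 chromosomes, and lower on chromosomes 3 and 10. Chromosome 11 had the highest share, 30 of 47 peaks (63.8%, 49.5 to 76.0%), against 11.9% on its arms. Chromosome 3 had the lowest, 1 of 19 (5.26%, 0.935 to 24.6%), against 17.2% on its arms. Without chromosome 11, the centromere-proximal share was 77 of 322 (23.9%, 19.6 to 28.9%), against 15.2% for the other peaks.

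**Figure D1:**
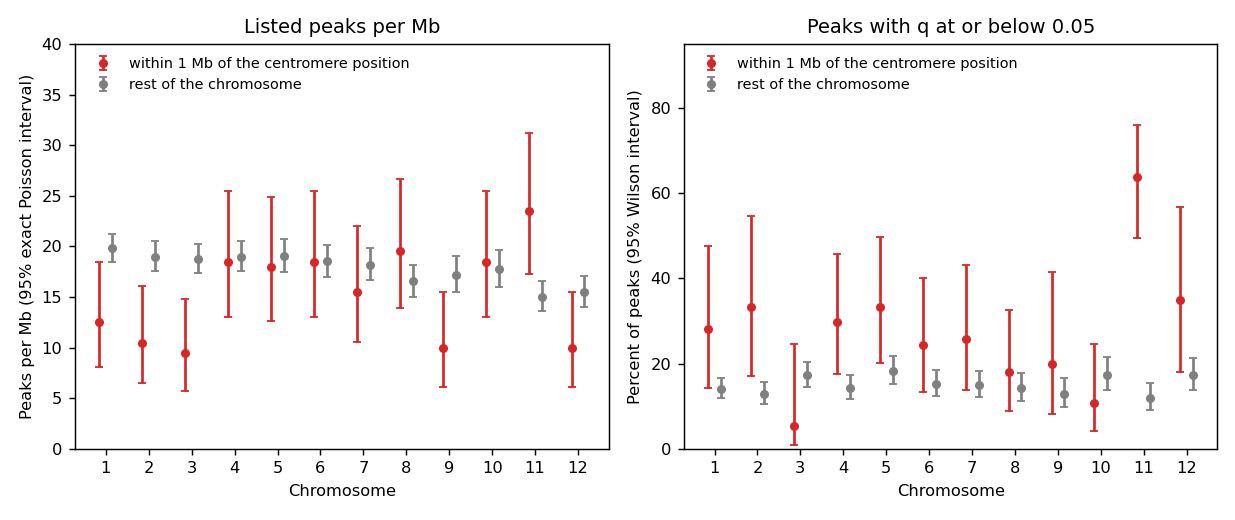
Listed peaks per Mb (left, 95% exact Poisson intervals) and the percent of peaks with q at or below 0.05 (right, 95% Wilson intervals) for each chromosome, within 1 Mb of the centromere position (red) and on the rest of the chromosome (grey). The window share past q lies above the rest on 10 of 12 chromosomes and is highest on chromosome 11 at 63.8%.

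The contrast in background was larger than that in q. High background was found at 51 of 369 centromere-proximal peaks, 13.8% (10.7 to 17.7%), whereas 2.01% of all listed peaks had it. Among the other peaks on the 12 chromosomes it was 83 of 6291, 1.32% (1.07 to 1.63%). The windows therefore contained 38.1% of the 134 high-background peaks in 6.44% of the bases. These 51 peaks lay on 8 chromosomes, 25 of them on chromosome 11. Chromosomes 3, 7, 8 and 10 had none in their windows. Without chromosome 11 the share was 26 of 322 (8.07%, 5.57 to 11.6%), against 1.39% for the other peaks. With high-background peaks less than 20 kb apart counted as 1 locus, there were 19 loci near centromeres, 0.792 per Mb (0.477 to 1.24), against 0.135 per Mb (0.0990 to 0.179) elsewhere.

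Peaks near chromosome ends had an intermediate share. Within 1 Mb of a first base or last listed position, 34 of 494 peaks (6.88%, 4.97 to 9.46%) had high background. The interval near centromeres lay above that range, but without chromosome 11 (8.07%, 5.57 to 11.6%) they overlapped. In the remaining 5797 peaks, neither near a centromere nor near an end, it was 0.845% (0.640 to 1.12%). The share past q near ends was also raised, 20.4% (17.1 to 24.2%), against 14.5% (13.6 to 15.5%) in that remainder.

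Much of the higher share past q near centromeres went with background. Over high background, 50 of 51 centromere-proximal peaks and 77 of 83 others passed q. At equal fold, q is lower where more fragments were counted. The lowest fold in the list was 2.00, so over high background peaks were listed only with many fragments. Both shares largely follow from that. Over lower background, 57 of 318 centromere-proximal peaks passed, 17.9% (14.1 to 22.5%), against 866 of 6208 others, 13.9% (13.1 to 14.8%). The remaining difference had overlapping intervals and the same direction on 7 of 12 chromosomes. Where the background was exactly at the floor, the order turned, with overlapping intervals: 15 of 173 centromere-proximal peaks passed (8.67%, 5.32 to 13.8%) and 466 of 3685 others (12.6%, 11.6 to 13.8%). At backgrounds between the floor and 2 times it, 42 of 145 passed (29.0%, 22.2 to 36.8%), against 400 of 2523 (15.9%, 14.5 to 17.3%). This range was not matched for background, which was higher near centromeres at the median and both quartiles. Median folds were 2.31 and 2.30, median pileups 17 and 16 fragments, and upper quartiles of pileup 20 and 18. How much of the difference follows from this was not tested. At a q of 0.01 the intervals overlapped, 13.1% (8.55 to 19.6%) against 8.44% (7.42 to 9.59%). The floor itself was the background of 46.9% of centromere-proximal peaks (41.9 to 52%), against 58.6% of the others and 58% of the whole list.

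**Figure D2:**
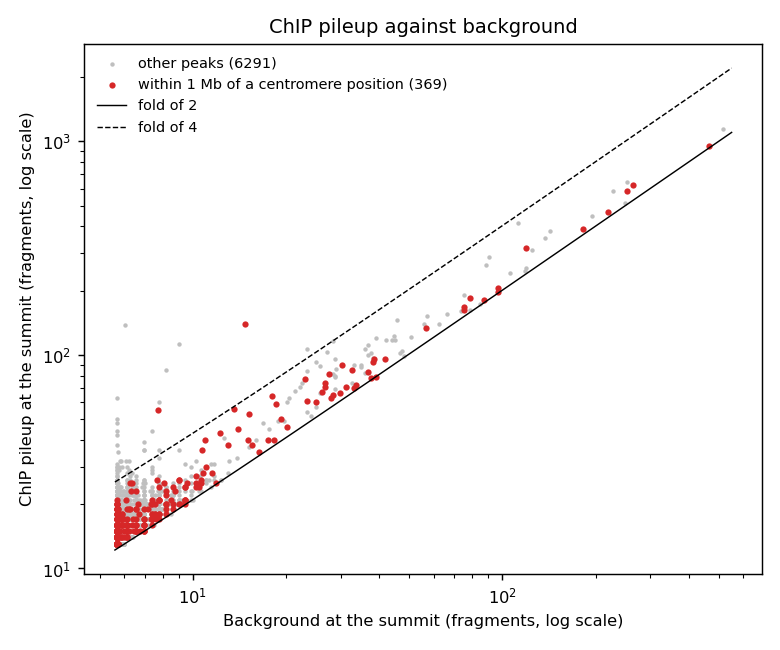
ChIP pileup against background at the summit, both in fragments on log axes, for the 369 centromere-proximal peaks (red) and the 6291 other peaks (grey); the lines mark folds of 2 and 4. Red points are frequent along the line of a fold of 2 at high background, and 2 of them lie above a fold of 4. The lowest fold in the list is 2.00, so the lower line is the edge of the list for red and grey points alike.

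The median fold was not higher near centromeres. The median fold was 2.33, with quartiles of 2.15 and 2.54, against 2.39, with quartiles of 2.24 and 2.54, for the other peaks. It was lower in the window than on the rest of the chromosome for 8 of 12 chromosomes. Of the centromere-proximal peaks, 22 had a fold of 3 or more (5.96%, 3.97 to 8.86%), against 4.48% of all listed peaks and 276 of the others (4.39%, 3.91 to 4.92%). The intervals overlapped, and with a window of 2 Mb the order turned (4.17% against 4.51%). Without chromosome 11 the share with a fold of 3 or more was 4.97% (3.08 to 7.92%), against 4.52% of the others. Of these 22 peaks, 14 had low background. The lower limit of the fold, which depends on the number of fragments, was at least 2 for 26 centromere-proximal peaks (7.05%) and 216 others (3.43%). Without chromosome 11 it was so for 15 centromere-proximal peaks (4.66%), against 3.58% of the others. Among low-background peaks these shares were 2.83% and 2.74%. A fold of 4 or more was seen at 2 of 369 (0.542%, 0.149 to 1.95%), against 0.629% of all listed peaks.

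The 2 strong centromere-proximal sites were unlike each other. The peak on chromosome 5 at 11896261 to 11896441 lay 504 kb below the centromere position, where it carried 140 ChIP fragments and 36 input fragments. Its fold of 8.95 (95% Poisson interval 7.54 to 10.6) was the 5th highest on the 12 chromosomes, and its nearest listed neighbour was 50196 bp away. It was 181 bp wide, against a centromere-proximal median of 236 bp. The chromosome 7 peak at 12138028 to 12138352 lay 38.2 kb above the position and was 325 bp wide. It had 55 fragments over a background 1.36 times the floor, a fold of 6.42 (4.86 to 8.32), and it ranked 11th. A second peak, with its summit 1221 bp away at 12136873 to 12137077, reached a fold of 3.11 on 26 fragments. So the chromosome 5 site was narrow, isolated and over high background, and the chromosome 7 site broad, paired and over low background.

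The 22 peaks that reached a fold of 3 lay on 9 chromosomes, with 6 on chromosome 11 and 4 on chromosome 8. The next highest fold, 3.92 (2.98 to 5.07), was on chromosome 11 at 12151162 to 12151430, with 56 ChIP fragments against 33 in the input. On chromosome 4, a fold of 3.57 (2.36 to 5.20) was found at 9854113 to 9854416, from 25 fragments. Another on the same chromosome, at 9556077 to 9556408, had a fold of 3.27 from 23 fragments; they lay 154 kb above and 144 kb below the position. Each of these intervals overlapped the others, so their order is not resolved.

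Chromosome 8 is known for a centromere with little satellite and with transcribed genes inside it. Its window had 39 peaks, of which 7 passed q (17.9%, 8.98 to 32.7%), and none with high background. The strongest, at 13463430 to 13463777, had a fold of 3.54 (2.34 to 5.15) from 25 fragments. The next, at 12989315 to 12989526, had a fold of 3.43 (2.47 to 4.64) from 40 fragments. It lay 89.4 kb above the position over a background 1.93 times the floor, just under the limit for high background. On chromosome 10 the strongest was at 7733218 to 7733770, 467 kb below the position, where 21 fragments over the floor gave a fold of 3.29 (2.09 to 4.95).

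On the remaining chromosomes the strongest peak in the window had a fold of 3.26 on chromosome 1, 3.14 on chromosomes 6 and 12, 2.99 on chromosome 9, 2.91 on chromosome 2 and 2.75 on chromosome 3. Their intervals overlapped those of the peaks on chromosomes 4, 8 and 10. The peak with a fold of 2.75, at 18436509 to 18436710, was the only one past q near the chromosome 3 centromere. It lay 963 kb from the position, with 18 fragments and a q of 0.0290.

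**Figure D3:**
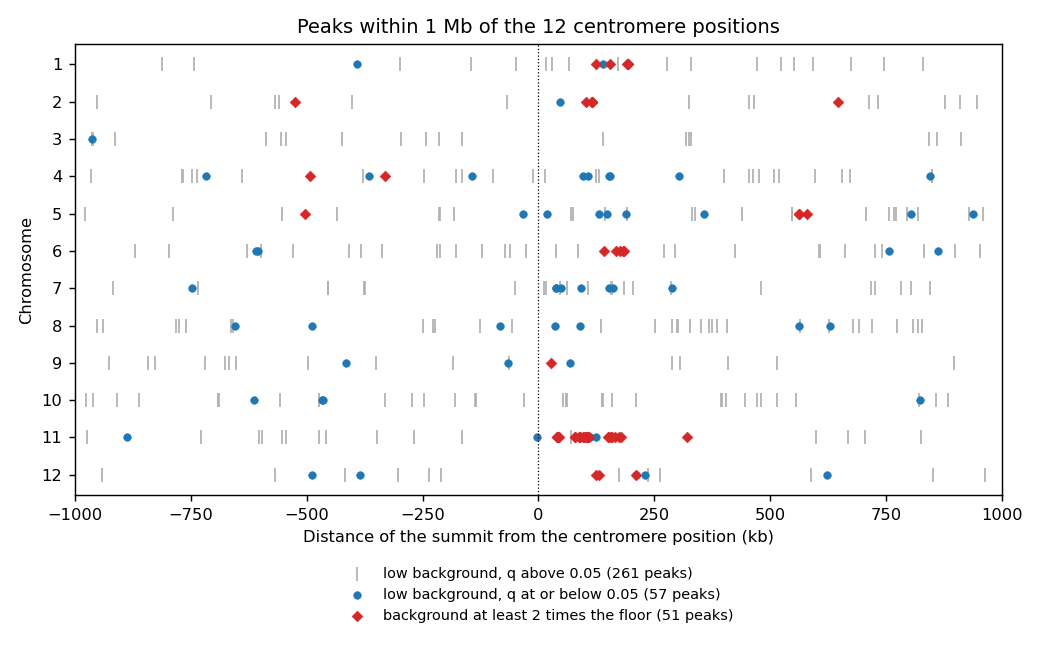
Summits of the 369 centromere-proximal peaks by chromosome, as distance in kb from the centromere position; grey ticks mark low-background peaks above a q of 0.05 (261 peaks), blue points low-background peaks past q (57) and red diamonds high background (51). Red diamonds gather between 27.5 and 212 kb on the side of higher coordinates, where 42 of the 51 lie.

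The high-background peaks and those past q gathered close to the position and on one side of it. Within 125 kb, 42 of 72 peaks passed q (58.3%, 46.8 to 69.0%) and 24 had high background (33.3%, 23.5 to 44.8%). From 125 to 250 kb the shares were 40% (29.3 to 51.7%) and 25.7% (16.9 to 37.0%). They dropped to 17.7% (10.9 to 27.6%) and 3.80% (1.30 to 10.6%) between 0.25 and 0.5 Mb and were 19% (11.9 to 29.0%) and 7.59% (3.53 to 15.6%) between 0.5 and 0.75 Mb, with overlapping intervals. In the bins from 0.75 Mb outward the share past q lay between 11.6% and 17%, near the 15.8% of the whole list. Without chromosome 11 the 2 innermost shares past q were 42% (29.4 to 55.8%) and 33.9% (23.3 to 46.3%), and those with high background 14% (6.95 to 26.2%) and 17.7% (10.2 to 29.0%).

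Peak density followed the same distance. It was 24 per Mb (18.8 to 30.2) within 125 kb and 23.3 (18.2 to 29.5) from 125 to 250 kb. It was 11.5 (8.95 to 14.6) from 0.75 to 1 Mb. Thereafter it was 13.7 per Mb from 1 to 1.5 Mb, 15.3 from 3 to 5 Mb and 21.5 beyond 10 Mb. Within the windows the density was lower more than 0.25 Mb from the position, while the interval of the innermost stretch contained the density of the distal arms. The mean density of the windows, 15.4 per Mb, was within the range of the bins from 1 to 10 Mb (13.7 to 16.2). The windows were thus sparser than the arms beyond 10 Mb, but not than their surroundings. Without chromosome 11 the innermost density was 18.2 per Mb (13.5 to 24).

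**Figure D4:**
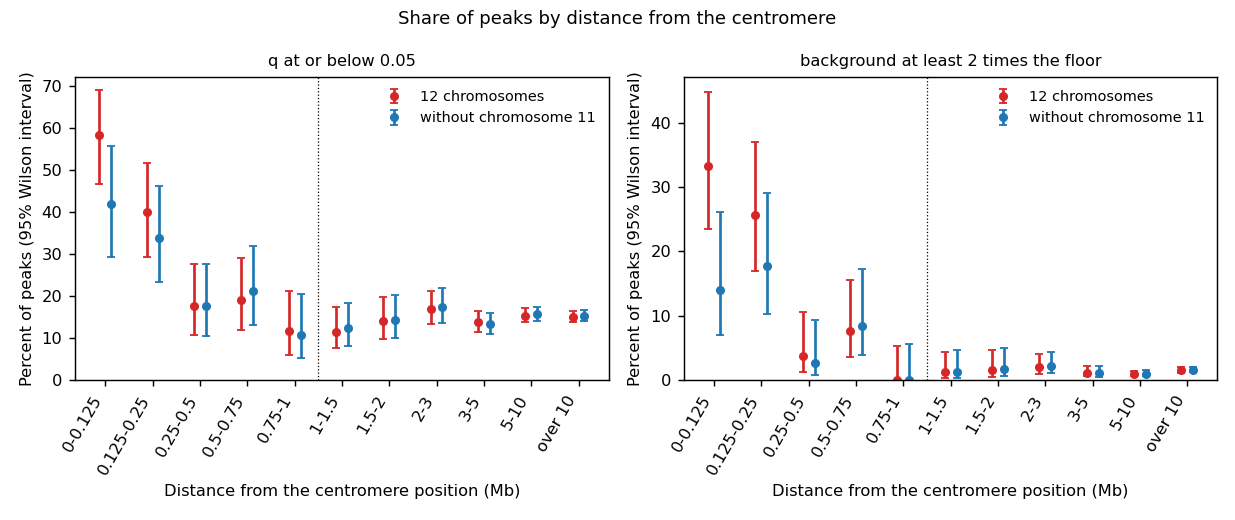
Percent of peaks with q at or below 0.05 (left) and with high background (right) by distance from the centromere position in Mb, with 95% Wilson intervals, for all 12 chromosomes (red) and without chromosome 11 (blue); the dotted line marks 1 Mb. Over 12 chromosomes both shares are highest within 0.125 Mb, at 58.3% and 33.3%. Without chromosome 11 the high-background share is 14% there and 17.7% from 0.125 to 0.25 Mb.

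By side, 144 centromere-proximal peaks lay below the position and 225 above it. Past q were 25 of those below (17.4%, 12 to 24.4%) and 82 of those above (36.4%, 30.4 to 42.9%). High background was found at 4 and 47 of them. Within 250 kb the contrast was 5 of 42 past q below against 65 of 100 above, and all 42 high-background peaks at that distance, on 6 chromosomes, lay above. Without chromosome 11 the counts past q were 4 of 40 and 38 of 72, and all 18 high-background peaks, on 5 chromosomes, lay above. The positions are rounded to 0.1 Mb, so a side is given only relative to the rounded value. Among low-background peaks the shares past q were 15% (10.03 to 21.8%) below and 20.2% (15 to 26.7%) above.

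Chromosome 11 carried the largest group, and its limits were set after the data were seen. Between 40 and 178 kb above the position it held 28 listed peaks, of which 27 passed q and 24 had high background. Their backgrounds had a median of 3.82 times the floor and a maximum of 38.5 times, their folds a median of 2.51 and a range from 2.00 to 3.92. Together they covered 10.3 kb. The other 19 centromere-proximal peaks of this chromosome included 3 past q and 1 with high background.

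Within that group folds and backgrounds varied from peak to peak. The first 4 peaks, between 12039875 and 12043790, had folds of 2.17 to 3.07 and 45 to 74 fragments. A run of 16 peaks past q followed between 12078951 and 12123478, with 26 to 81 fragments and widths from 193 to 607 bp. The last 7, between 12151162 and 12177990, included the highest fold of the group beside its highest background: at 12164573 to 12164754 the libraries gave 466 ChIP against 534 input fragments, for a fold of 2.12 (1.94 to 2.33). A final high-background peak stood apart at 12321215 to 12321443, 321 kb from the position, where 184 fragments gave a fold of 2.33 (2.00 to 2.69). Its nearest neighbour was 143482 bp away.

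**Figure D5:**
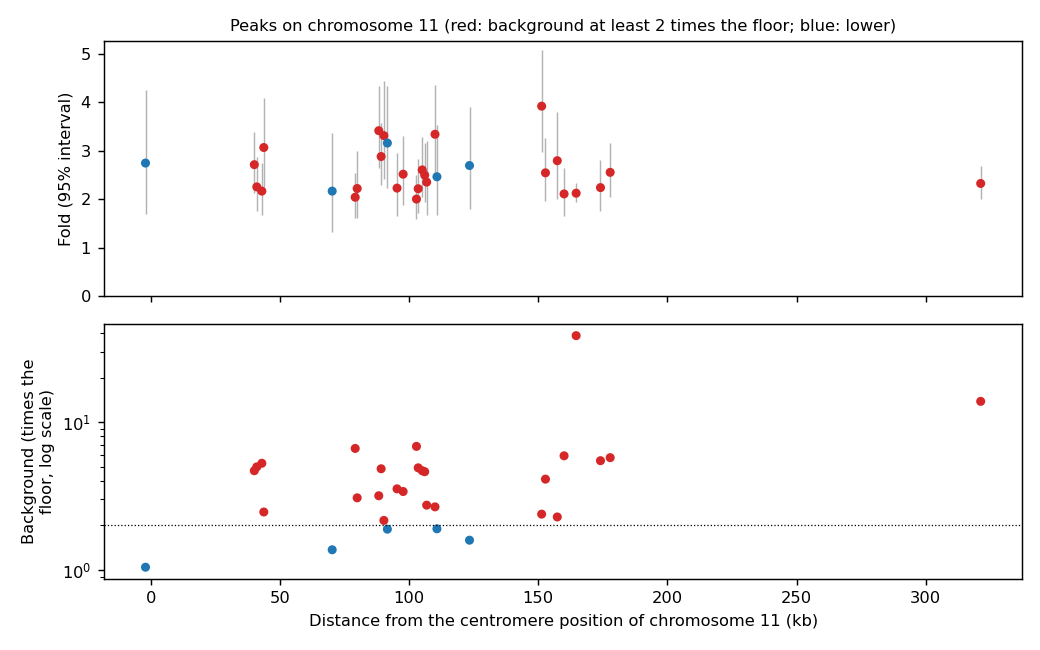
Fold with its 95% interval (top) and background as a multiple of the floor on a log axis (bottom) for peaks on chromosome 11, against distance in kb above the centromere position; red marks high background and blue lower background. From 40 to 178 kb folds stay between 2.00 and 3.92 while backgrounds reach 38.5 times the floor. The lowest fold in the whole list is also 2.00.

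Chromosome 6 had 5 narrow peaks over very high background, 3 of them above every other centromere-proximal peak. The 5 lay 141 to 184 kb above the position and were 181 to 191 bp wide. At 15483043 to 15483233 the background was 81.6 times the floor (948 ChIP against 1132 input fragments) and the fold 2.04 (1.91 to 2.18). At 15467323 to 15467505 the counts were 316 against 290, for a fold of 2.65 (2.36 to 2.95). With the counting error of both libraries the ratios of ChIP to input, scaled by depth, were 2.04 (1.87 to 2.23) and 2.66 (2.26 to 3.13), which did not overlap. The remaining 3 had 387, 586 and 624 ChIP fragments and folds of 2.11, 2.32 and 2.36. The high-background peaks on chromosome 11 had a median width of 269 bp, over backgrounds of 2.16 to 38.5 times the floor. On chromosome 6 the backgrounds were 20.9 to 81.6 times the floor. The chromosome 11 peak with the highest background was 182 bp wide, within the range of the chromosome 6 peaks.

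The groups on chromosomes 1, 2 and 12 were smaller. Chromosome 2 had 4 peaks between 13703360 and 13716843, with 90 to 133 fragments, backgrounds of 5.33 to 9.94 times the floor and folds of 2.33 to 2.91. Chromosome 1 had 5 high-background peaks between 124 and 194 kb above the position. The summits of 3 of these lay within 2 kb of each other, at 16891626 to 16893735, with 96, 70 and 77 fragments and folds of 2.27, 2.08 and 3.26. Chromosome 12 had 3, at 124, 131 and 212 kb. The last of these, with a fold of 2.02 from 25 ChIP against 29 input fragments, was the only high-background peak near a centromere that did not pass q (q = 0.258).

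The remaining high-background peaks stood on chromosomes 2, 4, 5 and 9. On chromosome 2 these were at 13074290 to 13074539, with a fold of 2.07 from 35 fragments, and at 14246653 to 14247311, with a fold of 2.21 from 168 fragments. On chromosome 9 the peak nearest the position, at 2827356 to 2827565, had a fold of 2.22 (1.77 to 2.74), from 83 ChIP against 90 input fragments. On chromosome 5, besides the strong site, 3 peaks between 562 and 580 kb had 197, 59 and 163 fragments and folds of 2.02, 3.06 and 2.15. On chromosome 4 the peak at 9206027 to 9206948 was 922 bp wide, the widest with high background near a centromere, and its 205 fragments gave a fold of 2.10 (1.82 to 2.41). A second on that chromosome, at 9369144 to 9369376, had a fold of 2.31 from 28 fragments.

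Chromosome 7 had no high-background peak in its window, but some of its backgrounds were above the floor. Between 13.1 and 162 kb above the position, a stretch picked after the data were seen, it had 13 peaks with backgrounds of 1.03 to 1.87 times the floor and a median of 1.66. At least 1.2 times the floor was reached by 12 of these, against 2 of the other peaks in its window. That limit was applied to no other chromosome, and the contrast follows in part from the choice of stretch. Past q were 6 of the 13, the strong site among them.

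More centromere-proximal peaks had a close neighbour. Another listed summit was within 2 kb of 64 of them (17.3%, 13.8 to 21.5%), against 620 of the others (9.86%, 9.14 to 10.6%). Without chromosome 11 it was 45 of 322 (14%, 10.6 to 18.2%), against 9.82%. The median distance to the nearest summit, 14001 bp against 16690 bp, was shorter in the window on 6 of 12 chromosomes and longer on the other 6. Over high background the share with a neighbour within 2 kb was 28 of 51 (54.9%, 41.4 to 67.7%), against 30 of 83 (36.1%, 26.6 to 46.9%) of the others. These intervals overlapped, and chromosome 11 held 25 of the 51 peaks. Over low background the share was 36 of 318 (11.3%, 8.29 to 15.3%), against 9.5% of the others. Runs of at least 4 peaks past q with gaps of at most 20 kb numbered 5 near centromeres, on chromosomes 2, 6 and 11. They took in 35 of the 107 peaks past q there (32.7%), against 53 of 943 elsewhere (5.62%). Chromosome 11 held 27 of the 35, and without it the shares were 8 of 77 (10.4%) and 53 of 895 (5.92%). The longest stretch without listed peaks in a window ranged from 180 kb on chromosome 6 to 515 kb on chromosome 3. Such stretches outside the windows were not measured for comparison.

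Widths differed little. The median was 236 bp, from 180 to 1231 bp, against 230 bp for the other peaks, and it was larger in the window for 9 of 12 chromosomes. Among peaks past q the order turned, with 238 bp against 253 bp. The widest centromere-proximal peak lay on chromosome 5 at 12367329 to 12368559, 32.3 kb from the position, and its 21 fragments gave a fold of 2.63. A width under 200 bp was found for 27.6% of centromere-proximal peaks (23.3 to 32.4%) and 25.3% of the others.

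Of the 12 peaks nearest to a position, 6 passed q, on chromosomes 2, 5, 8, 9, 11 and 12. Among all peaks within 125 kb of a position 58.3% did so, and in the whole list 15.8%. The nearest listed summit lay 2.11 kb from the position on chromosome 11 and 139 kb from it on chromosome 3, with a median of 27.3 kb over the 12 chromosomes. On chromosome 11 that peak, at 11997714 to 11998007, had a fold of 2.75 from 18 fragments. The 2 with the most fragments were on chromosomes 9 and 12, with 83 and 60. On chromosomes 1, 3 and 6 the nearest peak had 15 fragments over the floor and a fold of 2.39. At the limit of the window, the outermost peak inside, on chromosome 11 at 999 kb, had 15 fragments and a fold of 2.07, and the first outside, on chromosome 3 at 1000.2 kb, had 15 fragments and a fold of 2.39.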

How the data were processed

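The submitters' processing notes name MACS2 2.2.7.1, BWA 0.7.12-r1039 and Trimmomatic 0.36 for the anti-Myc ChIP library and the input library. Not given in the sources used here are settings, build and duplicate treatment. The deposited file is 1 peak list. Per the file headers it gives the pileup (ChIP signal, all whole numbers), the fold (a ratio of ChIP to background), and the p-value and q-value as −log10 values. Folds and q are the authors' values for each peak. Positions are 1-based.

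Computed here (pandas 2.3.3, scipy 1.17.1, numpy 2.4.6 and matplotlib 3.10.9 in Python 3.11.15): background as (pileup + 1)/fold − 1, which returned every deposited −log10 p-value to within 0.000336 under a Poisson tail. Input fragments are the background divided by 0.410, the weight of 1 input fragment, which made 81.7% of 1014 backgrounds over 1.15 times the floor whole to within 0.05; input counts are given only there. Total reads are not given; the weight corresponds to 2.44 input fragments per ChIP fragment. Fold intervals are exact Poisson with the background fixed, ratios exact Clopper-Pearson, shares Wilson. They cover counting error only, as PCR copies are not independent.

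No test was run. Named peaks were drawn from the 10 highest folds, the 10 highest backgrounds and every fold of at least 4. The highest fold and nearest peak of each chromosome and runs of 4 or more were also drawn on. Not all of these are named singly. Those left out include chromosome 11 peaks over high background with folds of 3.42, 3.34 and 3.31, which are among the 10 highest. Other named peaks were chosen after their values were seen. The set of peaks to describe and the limits were chosen with earlier results of these data known, although the rule for members uses positions alone. The code was tested on simulated peaks. The gene table at hand is of another assembly, so genes and motifs were not used here. Alternatives were other windows, limits, peak subsets and leaving out each chromosome.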

Additional observations from a re-analysis of the deposited data

How the results depend on the processing

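With windows of 0.5 and 2 Mb the number of centromere-proximal peaks became 221 and 719, and among peaks past q alone it was 107. Density turned with the window: at 0.5 Mb it was 18.4 per Mb against 17.8 for the others, and among peaks past q 4.46 against 2.70; without high-background peaks it was 13.3. The share past q was 38.0% at 0.5 Mb, 21.1% at 2 Mb, 17.9% without high-background peaks, 21.1% at a q of 0.01 and 34.7% at 0.1, above the others each time; with peaks within 20 kb joined it was 26.5% against 19.7%. The share with high background was 20.4% at 0.5 Mb, 7.79% at 2 Mb, 46.7% among peaks past q, 20.6% at 1.5 times the floor and 7.52% with peaks within 20 kb joined in the same way, a step added after the data were seen. The share with a fold of at least 3 was not above the others at 2 Mb (4.17% against 4.51%), among peaks past q (20.6% against 29.3%), at a fold of 4 (0.542% against 0.636%) or with nothing added to pileup and background (12.2% against 12.4%). The median fold was 2.65 among peaks past q and 2.46 with nothing added, below the others in both. The median width among peaks past q was 238 bp against 253 bp. The cause of these turns was not tested. Leaving out each chromosome in turn gave 322 to 350 peaks, densities of 14.6 to 15.9 per Mb, 23.9 to 31.0% past q, 8.07 to 15.5% with high background (lowest without chromosome 11), 4.97 to 6.33% with a fold of at least 3, median folds of 2.29 to 2.37 and median widths of 234 to 239 bp, with no change of direction. Overlap with genes and W-box content were not run, since no genome of the list's build was used here. No paired analysis was possible because each group has 1 library. The number of fragments limits single peaks: 15 fragments over the floor give a fold of 2.39 an interval of 1.40 to 3.85.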
